A study of Bos taurus and Cervus elaphus with 24 samples.

Results

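The 35 genes described here carry the names of proteasome subunits outside the immunoproteasome and were chosen by name: every gene among the array's 25232 gene names called PSMA, PSMB, PSMC or PSMD followed by a number, leaving out the immunoproteasome genes PSMB8, PSMB9 and PSMB10. The 20S core has 7 alpha subunit genes (PSMA1 to PSMA7) and, on this array, 8 beta subunit genes (PSMB1 to PSMB7, and PSMB11 of thymus epithelium). The regulatory genes are 6 ATPases (PSMC1 to PSMC6), 11 non-ATPase subunits and 3 chaperones that help to build the ATPase ring (PSMD5, PSMD9 and PSMD10). The genes had 71 probes of 60 bases, and each gene was followed by its brightest probe. Blood was taken from 4 deer (labelled Cervus elaphus), 4 Holstein-Friesian cows (HF) and 4 Polish Red cows (PR). Each animal was bled at peak lactation and again in the dry period, the rest between lactations, so the 6 groups are deer lactation, deer dry, HF lactation, HF dry, PR lactation and PR dry, with 4 arrays each. The labels call the samples peripheral blood nuclear cells, and collection tubes preserved the RNA. On each of the 24 bovine arrays the animal's RNA carried Cy5 and a pool from 20 other cattle carried Cy3, so a value is a log2 Cy5/Cy3 ratio, 0 means the level of the pool, and deer RNA was read by cattle probes against a cattle pool. No age, treatment or herd is given in the labels used here.

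The proteasome degrades proteins that carry ubiquitin chains. The alpha rings of the 20S core form its gate, and the beta rings inside hold the cutting sites: PSMB5 cuts after hydrophobic, PSMB6 after acidic and PSMB7 after basic residues. The 19S regulator caps the core. Its lid and base bind the ubiquitin chain, through PSMD4 among others, PSMD14 removes the chain, and the PSMC ATPases unfold the protein and open the gate. In blood leukocytes interferons exchange the cutting subunits for PSMB8, PSMB9 and PSMB10, which shape the peptides shown by MHC class I.

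Several results below turn on which probe was read, so the probes that set them apart are given here, with positions on UMD 3.1 from the file headers. No exon was assigned to any probe, since no annotation of that build was used here. The PSMA5 pair covers the same stretch, chr3:34147090-34147119 on the plus strand. Capitals mark the 3 letters in which the probes differ within these 30 bases.
A_73_101172: tgcccttaacttttaTttCcagctCcagtt
A_73_P152041: tgcccttaacttttaAttTcagctTcagtt
The PSMC1 probes follow each other at chr10:102933126-102933185 and chr10:102933180-102933239 on the plus strand, and capitals mark the 6 bases they share.
A_73_P340316: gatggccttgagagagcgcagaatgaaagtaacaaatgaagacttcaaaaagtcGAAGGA
A_73_100821: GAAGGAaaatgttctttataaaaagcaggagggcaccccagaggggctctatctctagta
The PSMC3 probes lie at chr15:78452488-78452547 and chr15:78456690-78456749 on the minus strand and share no position.
A_73_102688: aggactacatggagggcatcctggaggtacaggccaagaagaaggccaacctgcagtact
A_73_P259001: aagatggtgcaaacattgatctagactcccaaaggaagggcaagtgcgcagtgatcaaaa
The PSMA7 probes lie at chr13:55503612-55503671 and, over a stretch longer than the probe, at chr13:55506447-55506799 on the plus strand.
A_73_120240: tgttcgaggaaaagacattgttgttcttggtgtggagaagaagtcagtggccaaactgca
A_73_P336256: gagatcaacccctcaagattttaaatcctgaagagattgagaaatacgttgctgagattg
A second probe of PSMD4 (chr3:19598685-19599615, minus strand) is given because it read otherwise between species than the brightest one, and the brightest probe of PSMB6 (chr19:27198664-27198723, minus strand) because that subunit is followed array by array.
A_73_P256556: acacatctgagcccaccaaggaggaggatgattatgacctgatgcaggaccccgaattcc
A_73_P040057: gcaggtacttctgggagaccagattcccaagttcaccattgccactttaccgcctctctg

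The brightest probes of all 35 genes were above background and tested in each of the 9 comparisons, and none of their spots was saturated. Median Cy5 brightness was 109 to 255 on 23 arrays and 2038 on the array of PR animal 1 in the dry period, which had 703 outlier spots, where every other array had 75 or fewer. That array is left in the values below, and the main results between states and between breeds are also given without it. The deer lactation arrays of animals 2 and 4 also stood apart: their SD over all probes was 0.524 and 0.655, against 0.804 to 0.847 on the other 6 deer arrays. The leukocyte marker PTPRC was above background on all 24 arrays, as were 7 of 8 neutrophil markers, 5 of 5 monocyte markers and the globin gene HBB. Neutrophil markers (8 genes) had group means, with the lowest and highest array in brackets, of -0.52 (-1.20 to -0.14) in deer lactation, 0.03 (-0.21 to 0.44) in deer dry, 0.32 (-0.49 to 1.49) in HF lactation, -0.82 (-1.23 to -0.50) in HF dry, -0.28 (-0.54 to 0.07) in PR lactation and -0.78 (-1.20 to -0.64) in PR dry. Peak lactation minus dry, their median difference was -0.58 in deer, 1.18 in HF and 0.57 in PR, with none called. CAMP, a neutrophil granule gene, was above background on 4 arrays only. Monocyte markers (5 genes) had median differences of -0.12 in deer, 0.63 in HF and 0.53 in PR. B cell markers (4 genes) had -0.05, -0.47 and -0.04 in the same order, natural killer cell markers (4 genes) 0.11, -0.42 and -0.08, and T cell markers (5 genes) -0.03, -0.14 and -0.07. Erythroid markers (6 genes) had -0.67, 0.33 and -0.14, platelet markers (3 genes) -0.21, -0.25 and -0.07, and no marker was called between states. The part of these cell types in the differences below was not tested, and in whole blood fewer cells of a type and less RNA per cell cannot be told apart. The 4 arrays per group limit the precision, and all p-values below come from limma fitted to all 24 arrays and adjusted by Benjamini-Hochberg over all probes tested. A gene is called when the adjusted p is under 0.05.

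Proteasome subunits stayed near the cattle pool in both breeds. All 35 group means lay within 0.5 of 0 in HF lactation, HF dry and PR lactation, and 33 did in PR dry. In deer 23 of 35 did in either state, with group means down to -2.23 (PSMD2) and up to 1.44 (PSMB5) at peak lactation. The median of the 35 genes was 0.115, 0.270, 0.109 and 0.153 on the deer lactation arrays, against 0.144, 0.0237, 0.257 and -0.0392 on the deer dry arrays. It was 0.107, -0.00390, 0.203 and -0.0649 on the HF lactation arrays, against -0.0332, 0.129, -0.0175 and 0.0205 on the HF dry arrays. PR lactation arrays had -0.0810, 0.00642, 0.158 and -0.0136, against -0.799, 0.00734, -0.133 and -0.0595 on PR dry arrays. The states overlapped in every breed, and the first PR dry array stood far below the rest.

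**Figure D1:**
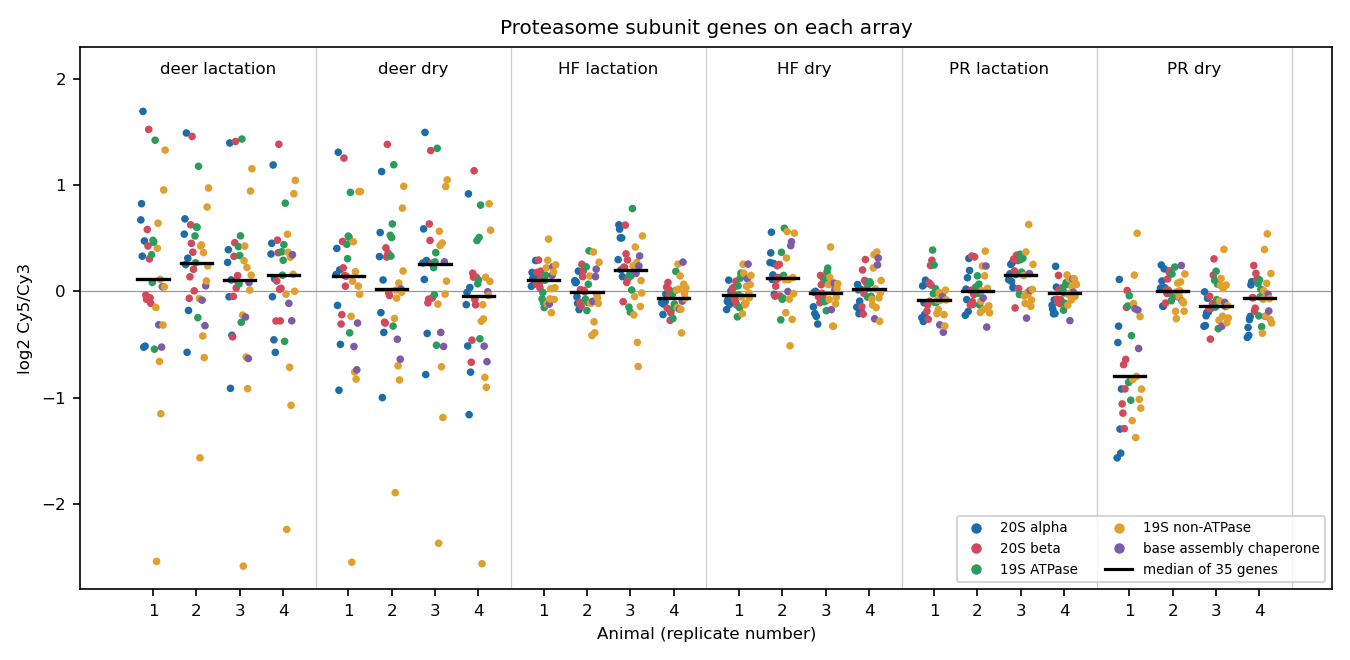
Log2 Cy5/Cy3 of the 35 proteasome subunit genes (points, coloured by subunit class) on each of the 24 arrays, with the median of the 35 genes as a black bar. The points of the deer arrays spread from below -2 to above 1, those of most cattle arrays stay near 0, and the array of PR animal 1 in the dry period has a median of -0.799.

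The first comparison asks whether subunit genes differ between peak lactation and the dry period in deer. No gene was called, while 0.00599% of all 33389 probes tested were. At an unadjusted p under 0.05 the count was 2 genes, PSMD5 and PSMD3, against 9.54% of all probes. Of the 35 genes, 30 had a higher mean at peak lactation, with a median difference of 0.11 beside 0.0095 over all probes (with Cy5 alone, -0.0146). The sign changed for 17 of the 35 with slide as a fixed block and for 19 with Cy5 alone. A single slide held deer arrays of both states, with 2 lactation arrays and 1 dry array. Slide and state can therefore not be fully told apart in deer. The array-weighted limma fit called 6 genes, against 19.8% of all probes, and it gave deer lactation array 4 a weight of 7.56, against 0.376 to 1.28 for the other deer arrays. Tukey's test after analysis of variance, the study's own kind of test, called 1 gene, PSMD5, against 1.1% of all probes. Here and below, calls by Tukey's test do not use the adjusted limma p. Without deer lactation arrays 2 and 4 the median difference was 0.06, with 26 genes higher and none called.

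PSMD5, a chaperone of the ATPase ring, had the smallest p. It read -0.31, -0.08, -0.24 and -0.11 in deer lactation, against -0.52, -0.45, -0.39 and -0.51 in deer dry. All lactation arrays lay above all dry arrays. The states did not overlap for 2 of the 35 genes and, in either direction, for 4.38% of all probes. The difference was 0.28 ± 0.08 (SE; adjusted p = 0.409), higher in 4 of 4 deer, and 0.19 ± 0.10 (SE) without deer lactation arrays 2 and 4. The lid subunit PSMD3 read 0.41, 0.43, 0.29 and 0.54 at lactation, against 0.10, 0.01, 0.57 and -0.12 in the dry period. The third dry array stood above all lactation arrays, and the difference was 0.28 ± 0.11 (SE; adjusted p = 0.469). PSMD9, another ring chaperone, read -0.52, -0.32, -0.63 and -0.28 at lactation, against -0.74, -0.64, -0.52 and -0.66 in the dry period, a difference of 0.20 ± 0.10 (SE; adjusted p = 0.555) that was 0.06 ± 0.12 (SE) without those arrays.

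Among the cutting subunits in deer, PSMB5 read 1.52, 1.46, 1.41 and 1.38 at lactation, against 1.25, 1.38, 1.33 and 1.14 in the dry period. It was the other gene whose states did not overlap, by a difference of 0.17 ± 0.14 (SE; adjusted p = 0.729). PSMB6 read 0.31, 0.37, 0.03 and 0.02, against 0.15, 0.36, 0.26 and -0.08, and its states overlapped. PSMB7 read -0.06, 0.21, 0.10 and -0.28, against 0.05, -0.02, -0.06 and -0.13, and also overlapped. Their differences were 0.0073 and 0.03. The ubiquitin receptor PSMD4 read 0.64, 0.44, 0.43 and 0.37 at lactation, against 0.47, -0.06, 0.43 and -0.26 in the dry period, 0.32 ± 0.17 (SE; adjusted p = 0.566). Dry replicates 2 and 4 were the lowest. The deubiquitinase PSMD14 read 1.33, 0.97, 1.15 and 1.05, against 0.94, 0.99, 1.05 and 0.58, 0.24 ± 0.17 (SE; adjusted p = 0.680), with overlap.

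In Holstein-Friesian cows the same comparison called no gene, against 0.00906% of 33101 probes, and 0 of 35 genes had an unadjusted p under 0.05, against 8.11% of all probes. Tukey's test also called none, against 1.09% of all probes. The mean was higher at peak lactation for 23 genes, with a median difference of 0.05 beside -0.0091 over all probes. Core subunits had a median difference of 0.10 with 13 of 15 higher, and regulatory subunits 0.0017 with 10 of 20 higher.

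PSMD8, a lid subunit, had the smallest p, with -0.20, -0.39, -0.71 and -0.39 in HF lactation against 0.05, -0.51, -0.33 and 0.37 in HF dry. The groups overlapped and the difference was -0.32 ± 0.18 (SE; adjusted p = 0.725). PSMC3, an ATPase of the ring, read -0.11, -0.18, -0.19 and -0.15, against -0.03, -0.07, -0.09 and 0.09. It was the 1 gene of 35 without overlap, lower at lactation in all 4 cows, where 6.42% of all probes showed none in either direction. The difference was -0.13 ± 0.09 (SE; adjusted p = 0.824). PSMD4 read 0.49, -0.41, 0.42 and 0.02 at lactation, against 0.17, 0.56, 0.42 and 0.35 in the dry period. Its lactation values spanned the widest range of the 5 subunits followed, and the difference was -0.24 ± 0.17 (SE; adjusted p = 0.819).

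The cutting subunits of HF cows hardly separated. PSMB5 read 0.07, 0.14, 0.35 and -0.04 in HF lactation, against -0.05, 0.13, 0.06 and 0.10 in HF dry. PSMB6 read 0.03, 0.20, 0.08 and -0.27, against -0.09, 0.13, -0.02 and 0.30. PSMB7 read 0.19, 0.01, 0.30 and -0.20, against 0.10, 0.25, -0.04 and 0.09. Their differences were 0.07 ± 0.14, -0.07 ± 0.16 and -0.02 ± 0.11 (SE), all within 1 SE of 0. PSMD14 read 0.25, 0.28, 0.52 and 0.03, against 0.15, 0.55, 0.07 and 0.10, a difference of 0.05 ± 0.17 (SE; adjusted p = 0.987), with the highest dry value in cow 2.

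In Polish Red cows no gene was called, nor was any of 32590 probes (0%). At an unadjusted p under 0.05 there were 6 genes, all higher at peak lactation, against 6.04% of all probes, and Tukey's test called none, against 0.399% of all probes. The mean was higher for 30 genes, with a median difference of 0.23 beside 0.02 over all probes. Without the bright PR dry array the median was 0.07, with 27 genes higher and none called. The states overlapped for all 35 genes, while 2.14% of all probes showed no overlap.

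PSMD1, the large scaffold of the regulator's base, read -0.21, -0.20, 0.15 and 0.16 in PR lactation, against -1.22, -0.19, -0.27 and -0.39 in PR dry. The difference was 0.49 ± 0.15 (SE; adjusted p = 0.797), and 0.26 ± 0.09 (SE) without the bright array. PSMA6, of the alpha ring, read 0.11, 0.31, 0.27 and 0.24 at lactation, against -1.52, 0.21, -0.06 and 0.06 in the dry period. Its difference of 0.56 ± 0.24 (SE; adjusted p = 0.797) was 0.16 ± 0.12 without that array. PSMD6, a lid subunit, read -0.08, -0.17, -0.01 and -0.02, against -1.37, -0.05, -0.23 and -0.23. Its difference of 0.40 ± 0.18 (SE; adjusted p = 0.797) was 0.10 ± 0.09 without it. The first dry value was the lowest for all of these genes, and the rest overlapped the lactation values.

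The same array was lowest for PSMB5, which read -0.09, -0.12, 0.34 and -0.11 in PR lactation against -0.92, 0.01, -0.15 and -0.16 in PR dry, 0.31 ± 0.14 (SE; adjusted p = 0.797). PSMB6 read 0.24, -0.03, 0.32 and -0.08 against -0.64, 0.18, -0.11 and 0.17, 0.21 ± 0.16 (SE). PSMB7 read 0.06, 0.33, 0.29 and 0.03 against -0.15, 0.19, 0.15 and 0.11, 0.10 ± 0.11 (SE). Without that array these differences were 0.10, 0.03 and 0.02. The gap between it and the others was smallest for PSMB7 among the cutting subunits. PSMD4 did not share it, with -0.01, 0.24, 0.37 and 0.12 against 0.15, 0.08, 0.12 and 0.39, a difference of -0.0076. PSMD14 did, with -0.08, -0.20, 0.26 and 0.07 against -0.92, 0.16, -0.25 and -0.30, 0.34 ± 0.17 (SE; adjusted p = 0.797), or 0.14 ± 0.15 (SE) without it.

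On that array 29 of 35 genes lay below the other 3 PR dry arrays, as did 34.7% of all probes. For 24 genes it was below every other cattle array. The median gap to the mean of the other 3 was -0.72 over the 35 genes and 0.05 over all probes, and 20 genes were more than 0.5 below. The alpha subunit PSMA1 read -1.57 there, against -0.43 to 0.03 on the others, while PSMA4, of the same ring, read 0.11 and PSMD8 read 0.55, both above the mean of the other arrays.

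**Figure D2:**
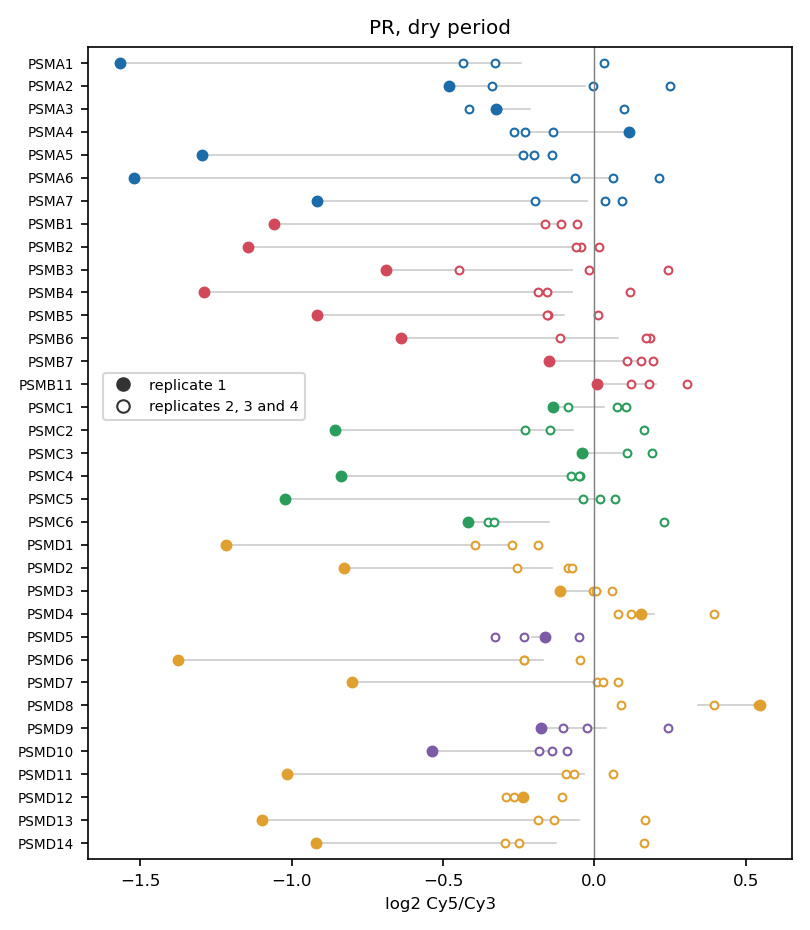
Log2 Cy5/Cy3 of each gene in the 4 PR cows in the dry period, with animal 1 filled, animals 2 to 4 open and a grey line to the mean of animals 2 to 4. The filled point is the lowest for 29 of 35 genes, and PSMA4 and PSMD8 are exceptions.

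By class, the 7 alpha subunits all had a higher mean at peak lactation in each breed, with a median difference of 0.23 in deer, 0.12 in HF and 0.33 in PR, though none was called. The direction flipped for some members with other scaling: with Cy5 alone 4 of 7 were higher in deer and 6 of 7 in PR, with median centring 6 of 7 in deer and 6 of 7 in HF, and with scale normalization between arrays 5 of 7 in deer. Among the 8 beta subunits 7 were higher in deer (median 0.11), 6 in HF (0.05) and 7 in PR (0.27), none called. PSMB11, the beta subunit of thymus epithelium, had -0.11, 0.06 and -0.06. The 6 ATPases had medians of 0.02 in deer, -0.03 in HF and 0.25 in PR. Non-ATPase subunits had 0.11, 0.0037 and 0.23 in the same order of breeds. Without the bright PR dry array the PR medians were 0.11 for alpha, 0.06 for beta, 0.08 for ATPase and 0.04 for non-ATPase subunits.

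**Figure D3:**
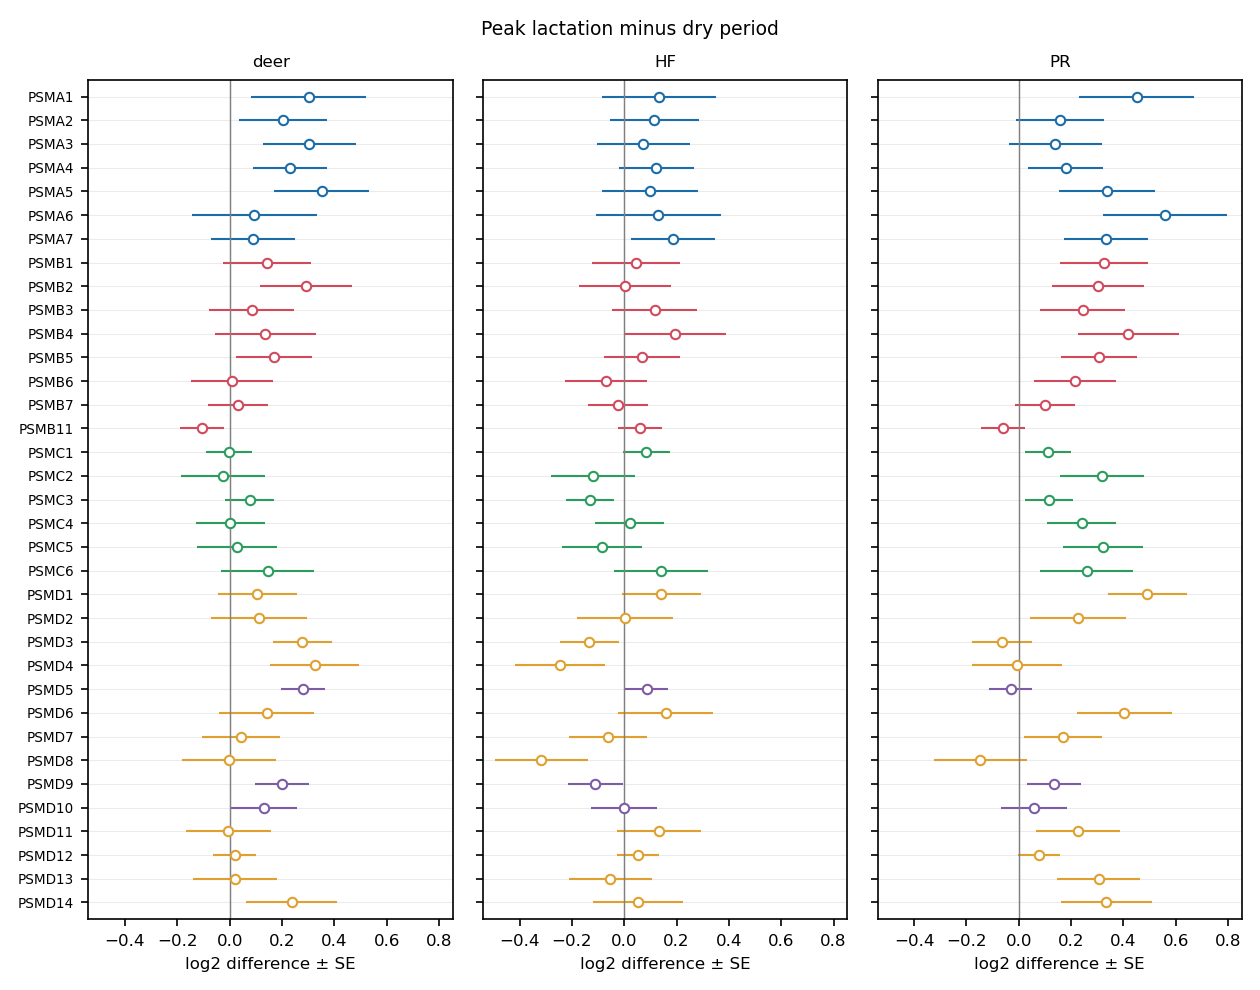
Difference in log2 Cy5/Cy3, peak lactation minus dry period, for each of the 35 genes in deer, HF and PR (points; bars are the SE of the limma fit; colours are subunit classes). Every marker is open because no gene reached an adjusted p under 0.05, and the 7 alpha subunits lie right of 0 in each panel, which with Cy5 alone 4 of 7 did in deer.

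Each animal had 1 array per state, so differences between animals and between arrays cannot be told apart. The median difference over the 35 genes was 0.14, 0.20, -0.02 and 0.23 in deer 1 to 4, 0.10, -0.11, 0.20 and -0.04 in HF cows 1 to 4, and 0.75, -0.0050, 0.24 and 0.03 in PR cows 1 to 4. Within the slides that held both states the median difference was 0.75, 0.06 and 0.11 for PR, 0.10, -0.11, 0.20 and -0.04 for HF, and 0.0060 for deer on 1 slide. In HF each slide held both arrays of 1 cow, so the slide values repeat those of the cows. The same holds for the 0.75 of PR cow 1, which rests on the bright dry array.

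Whether the change with state differed between breeds was tested directly. The HF change minus the PR change had a median of -0.22 over the 35 genes, with 2 genes above 0. Over all probes the median was -0.025, with 44.2% above 0. No gene was called, nor was any of 33478 probes (0%). No gene had an unadjusted p under 0.05, against 3.23% of all probes. The ATPases PSMC2, PSMC5 and PSMC3 had the smallest p, with -0.44, -0.41 and -0.25 (adjusted p = 0.997 for each). The ATPase PSMC2 read -0.01, 0.23, 0.16 and -0.25 in HF lactation against 0.05, 0.37, 0.11 and 0.07 in HF dry. It read -0.02, 0.04, 0.35 and -0.18 in PR lactation against -0.86, 0.16, -0.15 and -0.23 in PR dry. PSMC5, also of the ring, read 0.11, 0.07, 0.01 and 0.01 against 0.13, 0.15, 0.18 and 0.08 in HF, and 0.03, 0.07, 0.17 and 0.06 against -1.02, -0.04, 0.07 and 0.02 in PR. Without the bright array the median was -0.03, and the sign changed for 10 of the 35 genes. PSMC2, PSMC5 and PSMC3 then had -0.24, -0.15 and -0.21.

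The deer change minus the mean cattle change had a median of -0.02, with 14 genes above 0 and none called, nor was any of 35431 probes (0%). Without the bright PR dry array the median was 0.04, with 23 genes above 0 and none called. At an unadjusted p under 0.05 there were 3 genes, PSMD3, PSMD5 and PSMD4, against 8.87% of all probes. Their differences of change were 0.38 (adjusted p = 0.538), 0.25 (adjusted p = 0.551) and 0.45 (adjusted p = 0.558). PSMD3 was 0.28 higher at lactation in deer and -0.13 and -0.06 in HF and PR. The array-weighted fit, with its high weight on deer lactation array 4, called 2 genes, PSMD3 and PSMD5, against 11% of all probes. The same difference was above 0 for 0 of the 8 neutrophil markers, with a median of -1.45 and none called, and for 0 of the 5 monocyte markers, with a median of -0.59.

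The breeds were then compared within each state. In the dry period 1 gene was called, PSMD10, against 3.17% of 32924 probes. Of the 35 genes 31 were higher in HF, with a median of 0.23 beside 0.0083 over all probes. At an unadjusted p under 0.05 there were 15 genes, 14 of them higher in HF, against 22.4% of all probes. Without the bright PR array 24 genes were higher, the median was 0.11 and none was called, against 0.982% of all probes, and on the 1 slide that held dry arrays of both breeds the median was 0.0057. With slide as a fixed block the median turned to -0.07.

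PSMD10, a chaperone of the ATPase ring also known as gankyrin, read 0.26, 0.47, 0.01 and 0.31 in HF dry, against -0.54, -0.09, -0.14 and -0.18 in PR dry. The groups did not overlap and HF was higher by 0.50 ± 0.13 (SE; adjusted p = 0.0376). The share of all probes without overlap between the breeds is not given here, for this or the other genes. Without the bright array the difference was 0.40 and the call was lost (adjusted p = 0.0984). Leaving out each array in turn, it was lost in 7 of 8 fits (adjusted p = 0.0116 to 0.139), and also with only the arrays of the comparison (adjusted p = 0.206). PSMD1 read -0.05, 0.11, 0.07 and -0.07 in HF dry against -1.22, -0.19, -0.27 and -0.39 in PR dry, again with no overlap, by 0.53 ± 0.15 (SE; adjusted p = 0.0558), or 0.30 ± 0.09 (SE) without the bright array, again not called. PSMD14 read 0.15, 0.55, 0.07 and 0.10 against -0.92, 0.16, -0.25 and -0.30, 0.54 ± 0.17 (SE; adjusted p = 0.0768), with PR cow 2 inside the HF range. Without the bright array PSMD14 differed by 0.35 (adjusted p = 0.217). Tukey's test called PSMD1 and PSMD10, against 5.34% of all probes.

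At peak lactation no gene was called, against 0.0121% of 32949 probes. At an unadjusted p under 0.05 there were 3 genes, against 15% of all probes, and the median was 0.04 with 18 of 35 higher in HF. PSMD8 read -0.20, -0.39, -0.71 and -0.39 in HF lactation against -0.07, 0.38, 0.63 and 0.05 in PR lactation, by -0.67 ± 0.18 (SE; adjusted p = 0.0959). PSMC3 read -0.11, -0.18, -0.19 and -0.15 against 0.25, 0.15, 0.30 and -0.01, by -0.33 ± 0.09 (SE; adjusted p = 0.108). Neither gene's groups overlapped, though the share of all probes without overlap between the breeds is not given here. PSMD10 read 0.23, 0.21, 0.33 and 0.28 against -0.38, -0.33, 0.01 and -0.01, by 0.44 ± 0.13 (SE; adjusted p = 0.108), so HF arrays lay above all PR arrays of the same state in this gene in both states. Tukey's test called these 3 genes at peak lactation, against 2.93% of all probes.

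Deer were last set against the mean of both cattle breeds. In the dry period 20 genes were called, 13 higher and 7 lower in deer, which is 57.1% of the genes, against 57.4% of 35175 probes. At peak lactation 20 were called, again 13 higher and 7 lower, against 49.3% of 34265 probes. These shares are near the background. Without deer lactation arrays 2 and 4 there were 17 calls at lactation, 10 higher and 7 lower, against 50.5% of all probes. Erythroid and platelet markers were lower in deer at lactation, with medians of -2.34 (4 of 5 tested called lower) and -1.50 (2 of 3), and monocyte markers had 3 higher and 2 lower calls of 5. In the dry period 0 erythroid markers were called. Neutrophil markers had 4 higher and 0 lower calls of 7 tested in the dry period (median 0.79), but 1 higher and 3 lower at lactation (median -0.53). Their part was not tested. Mismatch of cattle probes to deer RNA and transcript level cannot be told apart, and no slide held both deer and cattle, so slide and species cannot be told apart either. Calls in both states numbered 18, all with the same sign, 12 higher and 6 lower. The 2 comparisons use different arrays of the same animals. The share of all probes called in both states is not given here, so the 18 are not read as particular to these genes. PSMB4 and PSMD5 were called in the dry period only, and PSMA7 and PSMD3 at lactation only, a difference that the deer change minus cattle change did not call. Without the bright PR array PSMA7 was also called lower in the dry period (-0.43, adjusted p = 0.00068).

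The widest gap was in PSMD2, the base subunit that docks ubiquitin shuttles. It read -2.54, -1.57, -2.58 and -2.24 in deer lactation, against -0.22 to -0.04 (median -0.11) on the 8 cattle lactation arrays. In the dry period it read -2.55, -1.89, -2.37 and -2.56 in deer, against -0.83 to -0.07 (median -0.16) in cattle. All deer arrays were below all cattle arrays, by -2.11 ± 0.16 (SE) in either state, a 4.32-fold lower ratio in the dry period (adjusted p = 4.32e-10) and 4.33-fold lower at lactation (adjusted p = 6.23e-10). The lactation difference was -2.44 ± 0.16 (SE) without deer arrays 2 and 4. For this gene and those below, the share of all probes without overlap between species is not given here.

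Among the brightest probes that of PSMB5 lay farthest above cattle. A less bright probe of PSMA2 lay higher still, by 1.53 in the dry period and 1.45 at lactation. The deer values of PSMB5 given earlier compare with -0.12 to 0.35 (median 0.01) on the cattle lactation arrays and -0.92 to 0.13 (median -0.02) on the cattle dry arrays. The difference was 1.40 ± 0.13 (SE; adjusted p = 5.74e-09) in the dry period and 1.38 ± 0.13 (SE; adjusted p = 1.08e-08) at lactation, without overlap. PSMD12, a lid subunit, read 0.96, 0.79, 0.95 and 0.92 in deer lactation, against -0.32 to 0.10 (median -0.07) in cattle. In the dry period it read 0.94, 0.78, 0.99 and 0.82 in deer, against -0.29 to 0.13 (median -0.17) in cattle. It was higher by 1.03 ± 0.07 (SE; adjusted p = 1.02e-10) in the dry period and 0.98 ± 0.07 (SE; adjusted p = 2.94e-10) at lactation. Its spread among deer was small beside these gaps.

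By class, the alpha subunits had 3 higher and 1 lower call in the dry period and 3 and 2 at lactation. PSMA4 was higher by 1.28 in the dry period and 1.36 at lactation, and PSMA5 of the same ring was -0.70 and -0.56. The beta subunits had 3 higher calls in the dry period and 2 at lactation and none lower, while PSMB6 (0.18 and 0.12) and PSMB7 (-0.13 and -0.13) were not called. Without the bright PR array PSMB1 (-0.25) and PSMB2 (-0.28) were called lower in the dry period. ATPases had 4 higher and 1 lower call in either state, led by PSMC6 (1.06 and 1.01). Non-ATPase subunits had 3 higher and 3 lower calls in the dry period and 4 and 3 at lactation. PSMD14 was higher (0.94 and 0.99), PSMD8 lower (-1.08 and -0.85) and PSMD4 not called (-0.14 and 0.31). The chaperone PSMD9 was lower in both states (-0.74 and -0.55).

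**Figure D4:**
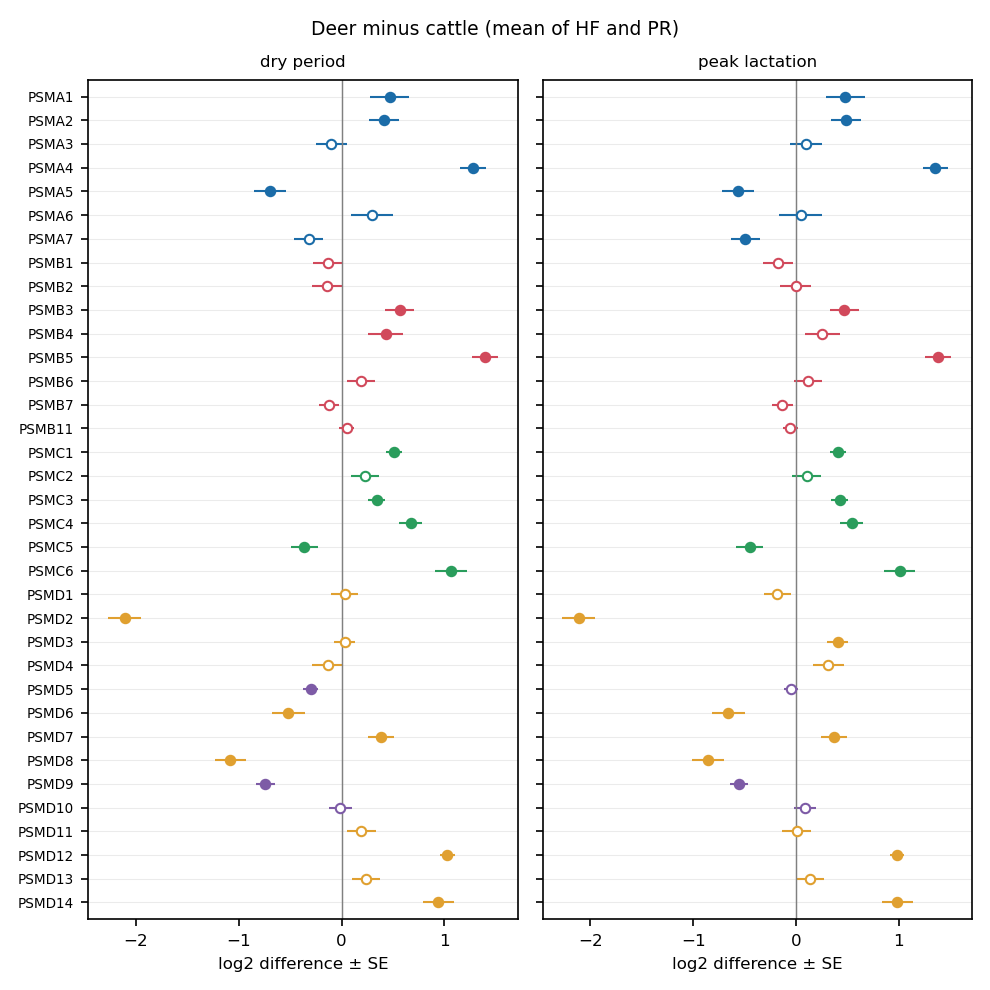
Difference in log2 Cy5/Cy3, deer minus the mean of HF and PR, for each of the 35 genes in either state (points; bars are the SE of the limma fit; filled points have an adjusted p under 0.05). PSMD2 lies near -2 and PSMB5 and PSMA4 above 1 in both panels.

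The split between higher and lower calls depended on scaling. With median centring in place of loess it was 21 higher and 3 lower in the dry period and 17 and 1 at lactation, against 61.6% and 52.3% of all probes, where the median of all probes stood at 0.21 and 0.16 and that of the 35 genes at 0.61 and 0.49. With Cy5 alone it was 12 and 3 in the dry period and 9 and 5 at lactation, against 45% and 42.5% of all probes. Called genes whose sign flipped in the dry period were PSMC5 and PSMD5 with median centring and PSMD5 and PSMD6 with Cy5 alone. Without the bright PR array the dry period had 23 calls, 13 higher and 10 lower, against 60% of all probes. With the mean of all probes of a gene, PSMC1, PSMC3 and PSMC5 flipped in both states and PSMD5 in the dry period.

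Probes of the same gene did not always agree between species. Of 21 genes with at least 2 probes above background on at least 20 arrays, 12 had the same sign on all probes in the dry period and 9 did not, and at lactation 11 and 10. In the dry period 6 genes were called in both directions by different probes: PSMA7, PSMC1, PSMC3, PSMC5, PSMD5 and PSMD8. At lactation 4 were: PSMC1, PSMC3, PSMC5 and PSMD8. PSMD2, PSMB5 and PSMD12 were not among the 21 genes, so their gaps between species have no second such probe beside them. The range across a gene's probes had a median of 0.73 in the dry period and 0.70 at lactation. For lactation minus dry the same probes ranged over a median of 0.11 in deer, 0.10 in HF and 0.21 in PR.

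The pairs printed above show it. The PSMC1 probe A_73_P340316 gave 0.51 in the dry period and 0.41 at lactation, deer minus cattle, while A_73_100821, which starts where it ends, gave -0.80 and -0.95. For PSMC3, A_73_102688 gave 0.34 and 0.42, and A_73_P259001 gave -1.04 and -0.71. The PSMA5 probes that differ in 3 letters both read lower in deer, A_73_101172 with -0.70 and -0.56 and A_73_P152041 with -1.75 and -1.68. PSMA7 spanned the widest range, 2.41 in the dry period, with 0.43 and 0.24 on A_73_120240, -0.32 and -0.49 on A_73_P336256 and below -1.5 on its other probes. PSMD4, the ubiquitin receptor, had -0.14 and 0.31 on its brightest probe and 1.05 and 1.36 on A_73_P256556. PSMB6 (A_73_P040057) and PSMC4 gave nearly the same value on each of their probes. Where the probes of a gene differed in sign, as for PSMA7, PSMC1, PSMC3 and PSMD4, the direction between species is that of the probe.

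**Figure D5:**
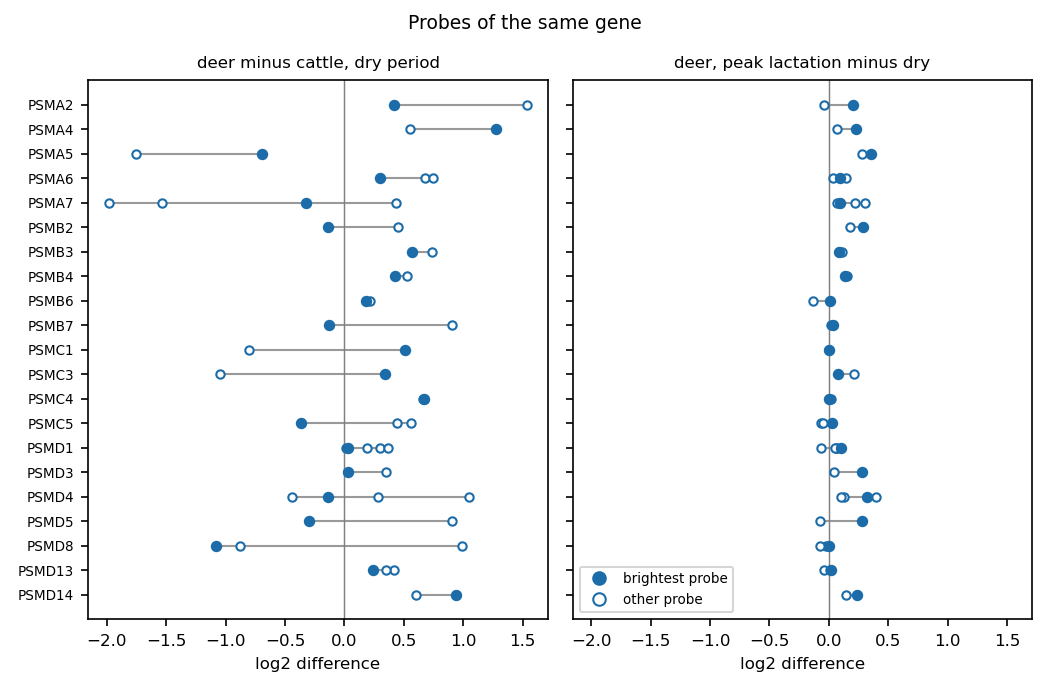
Log2 differences of every probe of 21 genes with several probes, deer minus cattle in the dry period (left) and peak lactation minus dry period in deer (right), with the brightest probe filled. Probes of a gene spread over a median of 0.73 on the left and 0.11 on the right.

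Of 36 other genes of the pathway in the list used here, 35 were on the array, and none was called between states in any breed. Of these 24 were higher at lactation in deer (median 0.09), 17 in HF (-0.01) and 27 in PR (0.21), or 20 in PR (0.06) without the bright array. The immunoproteasome subunits were not called between states. PSMB8 read 0.10, 0.22, 0.08 and -0.42 in deer lactation, against -0.10, -0.07, -0.01 and -0.24 in deer dry. PSMB9 read 0.47, 0.52, 0.36 and 0.45, against 0.45, 0.35, 0.45 and 0.26. PSMB10 read 0.72, 0.73, 0.56 and 0.83 in deer lactation, against 0.79, 0.67, 0.44 and 0.60 in deer dry, with the states overlapping. Between breeds in the dry period, 2 of the 35 were called, both higher in HF, against 3.17% of all probes. PSME4, an activator that caps the core in place of the 19S regulator, was higher by 0.54 (adjusted p = 0.0277). UBE3C, a ubiquitin ligase that binds the proteasome, was higher by 0.59 (adjusted p = 0.0418). PSME4 read 0.38, 0.49, 0.47 and 0.32 in HF dry against 0.10, 0.05, -0.23 and -0.45 in PR dry, and it alone remained without the bright array. Between species 17 were called higher and 8 lower in deer in the dry period, and 11 and 9 at lactation, against 57.4% and 49.3% of all probes. SEM1, a small lid subunit, was lowest at -4.47 in the dry period and -3.86 at lactation.

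The authors' deposited tables list probes that differ between the dry period and peak lactation. The authors' deposited table for PR has 158 probes, of which 1 is a subunit probe, A_73_108754 of PSMD1. The authors' deposited tables for HF (437 probes) and deer (576 probes) hold none.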

How the data were processed

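Intensities of 24 two-colour arrays (mean spot and median local background, linear scanner values) were deposited by the authors. Per the file headers they came from Feature Extraction 10.10.1.1, while the submitters' processing notes name version 10.7.3.1. The deposited log10 ratio of processed Cy5 over Cy3, background-subtracted and dye-normalized per the file headers, was used as an alternative. Of the authors' deposited tables only probe names were used, not their 72 columns of log2 ratios, whose making is not given in the sources used here.

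Spots were corrected with normexp (offset 50) and normalized by loess within arrays, with control spots (1417) and outlier spots at weight 0. Outlier spots were set to missing, and spots of one probe were averaged over 43653 probes. Tests covered probes whose Cy5 exceeded background on 3 or more of the 4 arrays in a compared group. limma 3.58.1 in R 4.3.3 (statmod 1.5.0) fitted 6 group means without a block, after the one-way analysis of variance in the study's design text. A simulation with known changes was used to test the scripts.

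Replicate numbers are animals, per the labels. Same-numbered arrays correlated at 0.18 to 0.51 (HF), 0.18 to 0.36 (deer) and 0.03 to 0.28 (PR) in their deviations across probes. Each animal's own pair was highest in 4 of 4 animals of each breed. Both arrays of each HF cow and of PR cows 1 and 4 shared a slide, so animal and slide cannot be told apart there. Both arrays of each deer were on different slides. Alternatives numbering 20 were listed, and leaving out each array gave 24 more fits. Named here by rule are the catalytic subunits, PSMD4 and PSMD14, and the 3 genes of smallest p in each comparison. Other subunit genes, such as PSMA4, PSMC1 and PSMC6, were named outside that rule. Of other pathway genes, those called between breeds were named, and between species only SEM1, the lowest. PSMB8, PSMB9 and PSMB10 were added after their values were seen. The members, lists and tests were chosen with earlier results of these data known. The 35 symbols all matched the RefSeq gene table.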

Additional observations from a re-analysis of the deposited data

Results flagged for a closer look

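In 114 sets of 4 arrays (18 named genes and the median of all 35, in 6 groups), 6 had 1 array far from the others by Dixon's criterion, and chance gives about 1 in 20. PR dry animal 1 held 3 of them: PSMA6 at -1.52 (others -0.06 to 0.21), PSMD6 at -1.37 (others -0.23 to -0.05) and PSMC5 at -1.02 (others -0.04 to 0.07). This is the array of 2038 median Cy5 brightness, and over all 35 genes 10 were so placed in PR dry, against 0 to 4 in each other group. PSMD14 read 0.55 in HF dry animal 2 (others 0.07 to 0.15). PSMB5 read 0.34 in PR lactation animal 3 (others -0.12 to -0.09). PSMD10 read 0.35 in deer lactation animal 4 (others 0.04 to 0.08). The part of array brightness in these values was not tested.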

How the results depend on the processing

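Values are called genes or log2 differences, grouped by alternative, and causes were not tested. Unless stated above, the share and median of all probes under an alternative are not given here. A count of called genes or a median below is therefore not read as a result about the subunits. Alternatives were run for the count of called genes and the median in each comparison and for 18 named subunit genes, each in some comparisons only.
With the Agilent processed ratio, HF minus PR in the dry period had 0 called genes, PSMD14 in HF was -0.0582 (lactation minus dry) and the deer minus cattle median at lactation was 0.256.
With median centring in place of loess, HF minus PR had 17 called genes and a median of 0.626 in the dry period and a median of 0.287 at lactation, and deer minus cattle had medians of 0.615 in the dry period and 0.487 at lactation. Lactation minus dry turned in PSMB5 (-0.0196) and PSMD14 (-0.0421) in HF, PSMD4 (0.0908) in PR, and PSMB6 (-0.0889) and PSMB7 (-0.0547) in deer.
With scale normalization, HF minus PR had 2 called genes in either state and deer minus cattle 9 in the dry period; lactation minus dry turned in PSMB7 (0.00159) in HF and PSMD9 (-0.0334) in deer.
With Cy5 alone, HF minus PR in the dry period had 0 called genes and a median of 0.519, the HF change minus PR change a median of -0.477, the deer change minus cattle change -0.269 (PSMD3 -0.0143, PSMD5 -0.139) and deer minus cattle in the dry period 0.420. Lactation minus dry was 0.0163 for PSMB7 in HF, and in deer the median was -0.0146, with PSMB5 -0.0146, PSMD3 -0.0984, PSMB6 -0.0507 and PSMB7 -0.124.
With slide as a fixed block, HF minus PR had 0 called genes and a median of -0.0687 in the dry period (PSMD14 -0.121) and a median of -0.303 at lactation (PSMD8 0.0134), and lactation minus dry in deer was -0.0941 for PSMD3, -0.101 for PSMB6 and -0.107 for PSMB7. That block could not be fitted for deer minus cattle. The random slide block had a correlation of -0.0015.
With array position as a factor, HF minus PR in the dry period had 3 called genes, and lactation minus dry was 0.0687 for PSMD4, -0.110 for PSMB5 and -0.163 for PSMD14 in HF, 0.176 for PSMD4 in PR and -0.0460 for PSMB6 in deer.
With array weights, 6 genes were called between states in deer, 2 for the deer change minus cattle change, and 5 in the dry period and 1 at lactation for HF minus PR; PSMB6 was -0.102 and PSMB7 -0.168 between states in deer.
HF minus PR in the dry period had 0 called genes with only its own arrays, without the bright PR dry array, and without 2 slides of HF arrays, where PSMB5 between states in HF was -0.0107. Without deer lactation arrays 2 and 4, which had the smallest SD over all probes among deer arrays, PSMB6 between states in deer was -0.00542. With the mean of all probes of a gene, lactation minus dry was 0.0231 for PSMB7 in HF, 0.0114 for PSMD4 in PR and -0.0625 for PSMB6 in deer, the deer change minus cattle change was -0.00194 for PSMD5, and deer minus cattle turned for 4 called genes in the dry period (PSMC1, PSMC3, PSMC5 and PSMD5) and for 3 at lactation (PSMC1, PSMC3 and PSMC5).
The 18 subunit genes were each followed in some comparisons only, and for deer minus cattle only PSMD12, PSMD2 and PSMB5 were. Within the comparisons followed, the only call lost was that of PSMD10 between HF and PR in the dry period. Calls were gained 16 times. It was lost with the Agilent processed ratio, Cy5 alone, slide as a fixed block, only its own arrays, without the bright array and without 2 slides of HF arrays. Of the other pathway genes, UBE3C lost its call without the bright array. The HF median between states turned to -0.0196 with median centring and -0.0244 with array position, and the median of deer change minus cattle change to 0.0985 with scale normalization, 0.00836 with array position, 0.0404 without the bright array and 0.000790 without deer lactation arrays 2 and 4.
Leaving out each array in turn, HF minus PR in the dry period had 0 to 11 called genes, the highest without PR dry replicate 2. Medians spanned 0 for HF lactation minus dry (-0.00423 to 0.0774), HF minus PR at lactation (-0.0129 to 0.0898) and deer change minus cattle change (-0.0768 to 0.0404). Lactation minus dry ranged in HF over -0.00534 to 0.126 for PSMB5, -0.133 to 0.0233 for PSMB6, -0.0988 to 0.0673 for PSMB7 and -0.0320 to 0.162 for PSMD14. It ranged over -0.0714 to 0.0615 for PSMD4 in PR, and in deer over -0.0760 to 0.0695 for PSMB6 and -0.0400 to 0.122 for PSMB7.
With the animal as replicate block the count of called genes was 0 for lactation minus dry in each breed and for both differences of change, as without it, and the block changed no other call; it could not be fitted for levels between breeds. No subunit was called in any comparison of Cy3 alone. Filters on dim probes and Aquantile normalization changed none of these values beyond the spread between replicates.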
